A study of Homo sapiens with 2 samples.

Results

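Mitochondrial genome expression and biogenesis regulators are described here by 10 genes, taken by symbol from the platform annotation, of 18417 genes measured on the arrays. They are TFAM, TFB2M, POLRMT, TFB1M, POLG, TWNK, NRF1, GABPA, PPARGC1A and PPARGC1B, and 11 of the 33297 probe sets carry their symbols, since GABPA has a pair. The cells were K562, a human chronic myeloid leukaemia line, and both cultures carried an inducible short hairpin (shBmi1) aimed at the Polycomb gene BMI1. The doxycycline culture received the drug for 96 h and the other culture received none (control), with 1 array each. The labels do not say whether the line is a clone or a pool, or how long the control was kept. With 1 sample a group there is no spread between replicates, so every difference below is a description of these 2 samples without a test, and doxycycline, the hairpin and any other difference between the cultures cannot be told apart.

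Mitochondrial DNA (mtDNA) is copied and read by enzymes that nuclear genes encode. The polymerase POLRMT starts transcription at mtDNA promoters together with TFAM, which also packages the DNA, and TFB2M, which opens the promoter. POLG and the helicase TWNK replicate the molecule. In the nucleus NRF1 and GABPA activate many genes for mitochondrial proteins, and the coactivators encoded by PPARGC1A and PPARGC1B dock on such factors to raise mitochondrial content. NRF1 is here the nuclear respiratory factor, not NFE2L1, which has carried the same short name.

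The promoters of the genes that serve mtDNA transcription and ribosomal RNA methylation are shown because sites for NRF1 and GABPA are the textbook link between the nuclear factors and the mitochondrial machinery. Each runs 5′ to 3′ over 300 bases, 250 before the RefSeq start site and 50 from it (GRCh38.p14), on the strand of the gene. Capitals mark matches to an NRF1 core (GCGCATGC, or GCATGCGC on the other strand) or to the ETS letters that GABPA recognises (CCGGAAG, or CTTCCGG on the other strand). The lines give TFAM at chr10:58385160-58385459 (plus strand), TFB2M at chr1:246566212-246566511 (minus), POLRMT at chr19:633488-633787 (minus) and TFB1M at chr6:155314435-155314734 (minus).
TFAM: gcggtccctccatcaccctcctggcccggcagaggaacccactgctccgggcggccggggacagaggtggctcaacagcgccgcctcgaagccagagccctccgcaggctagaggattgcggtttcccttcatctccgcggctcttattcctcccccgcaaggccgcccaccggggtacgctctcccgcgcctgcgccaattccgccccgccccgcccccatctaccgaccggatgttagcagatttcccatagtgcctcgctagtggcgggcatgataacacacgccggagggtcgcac
TFB2M: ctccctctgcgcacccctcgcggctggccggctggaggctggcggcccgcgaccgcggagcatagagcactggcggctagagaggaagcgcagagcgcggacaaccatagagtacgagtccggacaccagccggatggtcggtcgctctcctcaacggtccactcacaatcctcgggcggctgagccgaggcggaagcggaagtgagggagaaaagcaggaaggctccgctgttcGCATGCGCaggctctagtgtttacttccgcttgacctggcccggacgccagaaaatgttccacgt
POLRMT: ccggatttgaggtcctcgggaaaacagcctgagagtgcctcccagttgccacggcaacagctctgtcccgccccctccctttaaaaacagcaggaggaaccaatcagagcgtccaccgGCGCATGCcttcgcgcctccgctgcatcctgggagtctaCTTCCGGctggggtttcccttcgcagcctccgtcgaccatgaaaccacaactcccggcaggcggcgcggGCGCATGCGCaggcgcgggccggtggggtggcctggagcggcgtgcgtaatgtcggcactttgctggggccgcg
TFB1M: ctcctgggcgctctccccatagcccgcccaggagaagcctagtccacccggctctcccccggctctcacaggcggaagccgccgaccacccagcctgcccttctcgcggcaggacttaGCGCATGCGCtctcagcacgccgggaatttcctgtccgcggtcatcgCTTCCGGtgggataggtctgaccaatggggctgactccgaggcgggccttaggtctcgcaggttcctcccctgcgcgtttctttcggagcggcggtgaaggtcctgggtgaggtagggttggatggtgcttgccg

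The NRF1 core was found once in TFB2M, at -15 to -8 from the start site. In POLRMT it was found at -132 to -125 and, on both strands in overlapping letters, between -24 and -15. In TFB1M it was again read on both strands, between -132 and -123. The ETS letters lay at -93 to -87 in POLRMT, at -85 to -79 in TFB1M and at -66 to -60 in GABPA. The shorter NRF1 letters TGCGCA, which read the same on both strands, overlapped the core in TFB2M and POLRMT, occurred once more in TFB2M at -243 to -238, and lay in 8.24% of all promoters. The TFAM window held none of these, but held the SP1 letters GGGCGG (or CCGCCC) 5 times, the last 3 sharing a base with their neighbour. The promoter table held 8 of the 10 genes, of which 3 had the NRF1 core, 3 the ETS letters and 7 the SP1 letters. Of all 35116 RefSeq promoters of this length, 3.05% held the NRF1 core, 10.3% the ETS letters and 45.0% the SP1 letters. Counted by gene, over the 10603 genes past the floor with a promoter, the shares were 5.76%, 20.4% and 74.8% in the same order. A match describes the letters and is not evidence of binding. Only exact letters were searched, so a window without a match, as for TFAM, is not shown to lack sites for NRF1 or GABPA.

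**Figure D1:**
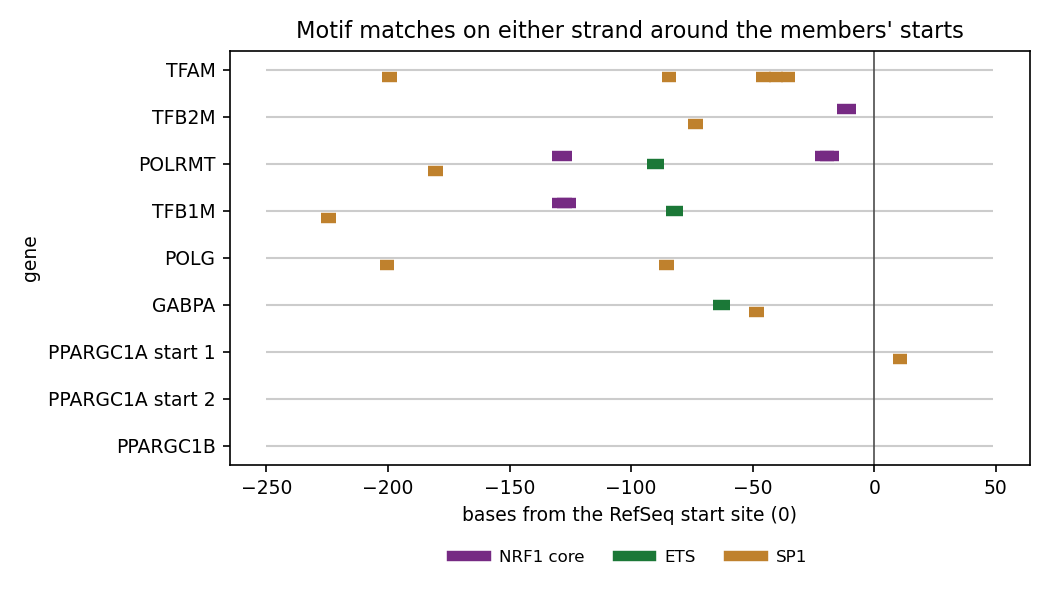
Matches to the NRF1 core, ETS and SP1 letters on either strand, by distance in bases from the RefSeq start site at 0, in the 9 promoters of the 8 genes that the table holds. TFB2M, POLRMT and TFB1M carry the NRF1 core, and the TFAM window carries 5 SP1 matches, of which the 3 nearest the start overlap.

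The targeted transcript was lower with doxycycline. The probe set annotated to BMI1 and its read-through with COMMD3 read 10.00 in doxycycline cells against 10.84 in control cells, 1.79-fold lower. The defining markers of K562 were bright, with 8 erythroid genes between 8.19 and 13.03 in doxycycline cells and between 8.76 and 13.34 in control cells. All 8 (HBE1, HBZ, GATA1, TAL1, KLF1, TFRC, NFE2 and HEMGN) were lower with doxycycline, by log2 differences of -0.57 to -0.09. The part of this erythroid shift in the values below was not tested. Markers of T cells, monocytes, granulocytes, endothelium and fibroblasts stood between 5.67 and 7.91 with doxycycline and between 5.60 and 7.86 without. Of these 6 genes CD3E and MPO were under the floor of 6 in both samples, and the other 4 reached it in both samples. The fibroblast genes COL1A1 and COL1A2 were among these 4, so reaching the floor does not by itself show that a gene was expressed.

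Most members were slightly lower in the doxycycline sample, and by little. All values are log2 RMA values, differences are doxycycline minus control, and a gene was counted when its higher value reached 6. Of the 9 members past this floor, 8 were lower (GABPA by its brighter probe set) and TFB1M stood level, with a median difference of -0.06. By the dimmer GABPA probe set, 7 of 9 were lower. Over all 13471 genes past the floor, 48.9% were lower and the median difference was 0.0017. The members were chosen with earlier results of these data known, so these shares are no independent comparison. At least 1.2-fold lower were 1 of 9 members, PPARGC1B, against 4.05% of all genes, and 0 of 9 were at least 1.2-fold higher, against 6.05% of all genes. At 1.5-fold, 0 members were lower and 0 higher, where 0.111% of all genes were lower and 0.364% higher. Placed among the 500 genes nearest in level, 7 of 9 members lay within 1 robust SD of the median difference of those genes. TWNK lay between 1 and 2 robust SDs and PPARGC1B beyond 2. Because each value comes from the RNA of a whole culture, fewer cells that express a gene and less of its RNA per cell cannot be told apart.

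**Figure D2:**
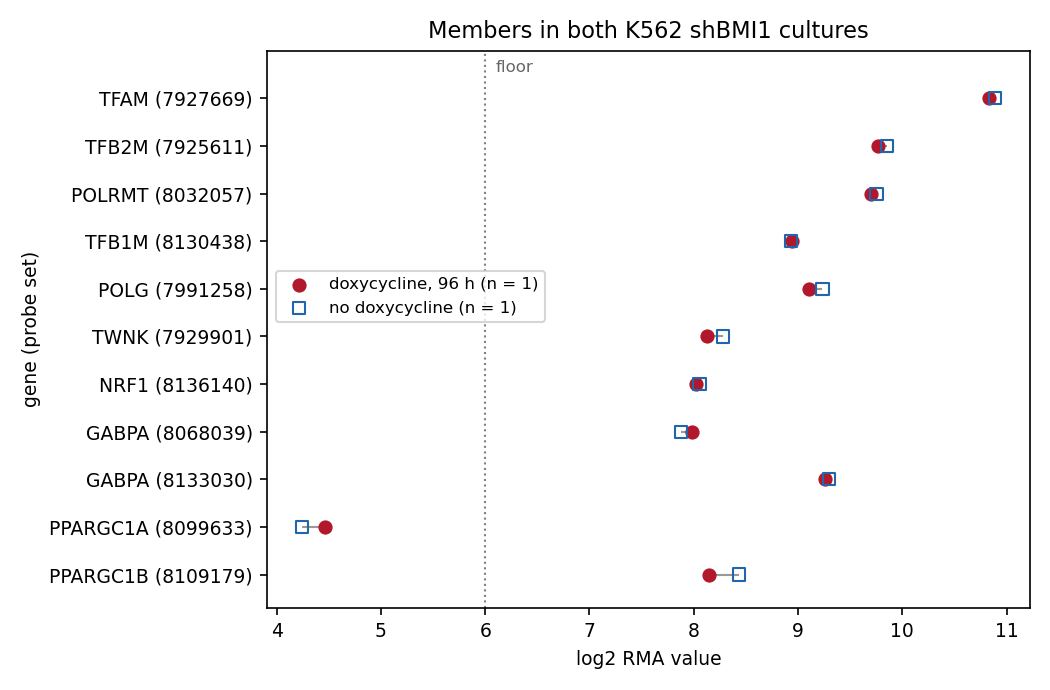
Log2 RMA value of each probe set of the 10 genes with doxycycline (filled circles) and in the control (open squares), with the floor of 6 as a dotted line. The widest gaps are at PPARGC1B, lower with doxycycline, and PPARGC1A, which lies under the floor in both samples, and the 2 GABPA probe sets point in opposite directions.

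In the transcription machinery, 3 of 3 genes were lower with doxycycline, by at most 5.74% (TFB2M). TFAM read 10.83 in doxycycline cells against 10.89 in control cells, differing by -0.06, or 4.23% lower. TFB2M read 9.77 with doxycycline against 9.85 in the control, differing by -0.09. POLRMT, the mitochondrial RNA polymerase, read 9.70 with doxycycline against 9.75 in the control, differing by -0.05. These differences were small beside those of other genes as bright. Among the 500 genes nearest to TFAM in mean value, 163 had a lower difference than TFAM, and the robust SD of their differences was 0.13. The same count was 123 of 500 for TFB2M and 171 of 500 for POLRMT. RefSeq lists pseudogenes of TFAM (2), TFB2M (1) and POLRMT (1), and whether their transcripts reach these probe sets was not tested.

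TFB1M, the paralogue of TFB2M that methylates the small ribosomal RNA of the mitochondrion, was the flattest member. It read 8.94 with doxycycline against 8.93 in the control, differing by 0.0055. Of the 500 genes nearest in level, 254 had a lower difference, so TFB1M lay at their middle. Its sign turned to -0.0018 when a trend of the difference with level was subtracted, and no direction is given for it. The gap to its paralogue TFB2M (-0.09) was smaller than the robust SD among genes of like level, 0.14 around TFB1M and 0.13 around TFB2M.

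The replication genes were further from 0. TWNK read 8.13 in doxycycline cells against 8.28 in control cells, differing by -0.16, or 10.3% lower. Of its 500 nearest genes, 52 had a lower difference. POLG, the catalytic subunit of the mtDNA polymerase, read 9.11 with doxycycline against 9.23 in the control, differing by -0.13, or 8.46% lower, and 92 of its 500 nearest genes lay lower. The POLG transcript also encodes POLGARF in an overlapping frame, which the array cannot separate. Some other replication genes were on the other side of 0. POLG2, the accessory subunit of the polymerase, differed by 0.09, and MGME1, a mitochondrial exonuclease, by 0.10. Both were picked for mention after their values were seen.

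Of the nuclear factors, NRF1 was close to level and GABPA had no settled direction. NRF1 read 8.02 with doxycycline against 8.05 in the control, differing by -0.04, with 191 of its 500 nearest genes lower. The brighter GABPA probe set (8133030) read 9.26 with doxycycline against 9.30 in the control, differing by -0.04. The dimmer one (8068039) read 7.99 with doxycycline against 7.87 in the control, differing by 0.11, or 8.12% higher. The gene was counted by the brighter probe set, and by the dimmer one 7 of 9 members would be lower. Which of the pair lies at the GABPA locus was not checked, so no direction is given for the gene. RefSeq lists 1 pseudogene, GABPAP, under none of the single-symbol probe sets here, and whether either GABPA probe set reads it was not tested. GABPB1, a partner subunit of GABPA, read 9.59 with doxycycline against 9.36 in the control, differing by 0.23. GABPB2, picked after its value was seen, read 7.98 with doxycycline against 7.93 in the control, differing by 0.05.

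The coactivators held the largest member difference. PPARGC1B read 8.15 in doxycycline cells against 8.44 in control cells, differing by -0.29, or 18.0% lower. Of its 500 nearest genes 10 had a lower difference, and of all 13471 genes past the floor 398 did. The robust SD among the 500 was 0.15. PPARGC1A, the coactivator best known from brown fat and muscle, stood at 4.46 with doxycycline and 4.24 without, under the floor in both samples. At that brightness the robust SD of differences was 0.23, wider than its own difference of 0.22, and whether it was expressed is not shown. PPRC1, the other member of the family and also picked after its value was seen, read 8.38 with doxycycline against 8.54 in the control, differing by -0.16. Without PPARGC1B, 7 of the remaining 8 members past the floor were lower, with a median of -0.06.

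**Figure D3:**
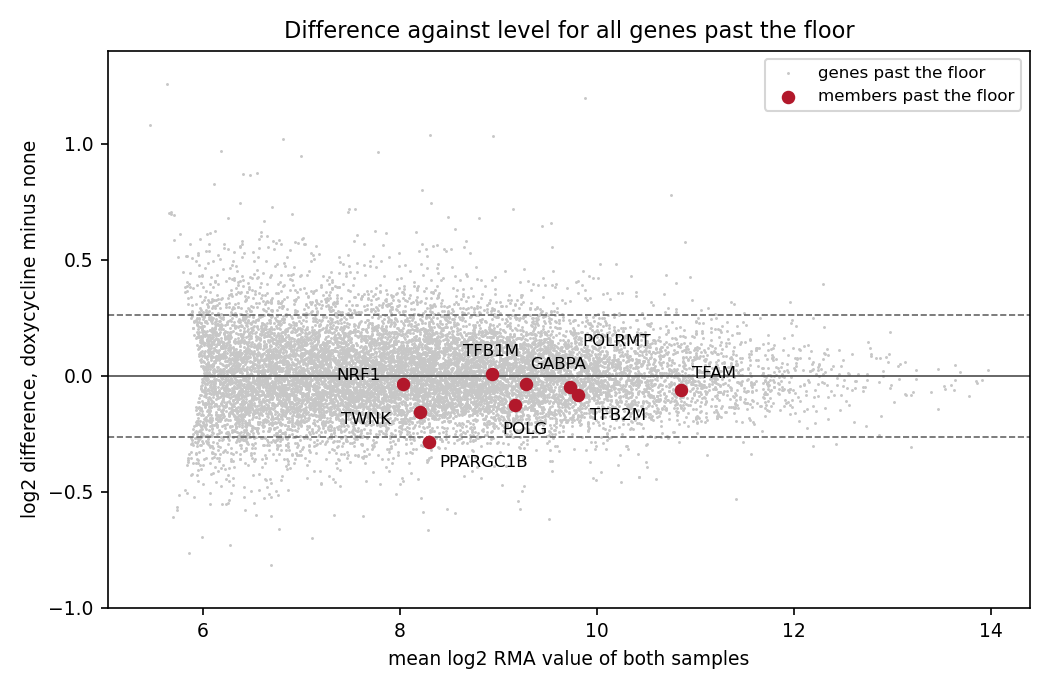
Log2 difference, doxycycline minus control, against the mean log2 value of both samples for the 13471 genes past the floor (grey) and the 9 members past it (red); dashed lines mark 1.2-fold. PPARGC1B at -0.29 is the one member outside the dashed lines, and 10 of its 500 nearest genes lie lower still. The other members lie between the dashed lines.

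Other genes of the pathway were read through 7 lists, each set beside the 48.9% of all genes that were lower. The lists were chosen with earlier results of these data known, so this is no independent comparison. In mitochondrial ribosomal RNA modification 9 of 9 genes were lower by their brightest probe set, with a median of -0.15. MRM3, a methyltransferase of the large ribosomal RNA, stood at 8.09 with doxycycline and 8.47 without, 1.29-fold lower and the one gene of its list past 1.2-fold. RPUSD4, a pseudouridine synthase (-0.20), METTL17, a small-subunit assembly factor (-0.19), and the methyltransferase MRM2 (-0.16) followed. For METTL15, which methylates the small ribosomal RNA, the brighter probe set gave -0.13 and the dimmer 0.14. Which of the pair lies at the METTL15 locus was not checked. By the mean, median or dimmest probe set, 8 of 9 genes of this list were lower. In mitochondrial transcription and RNA processing 20 of 24 genes were lower (27 were listed), with a median of -0.07 and 0 past 1.2-fold. MRPL12, a ribosomal protein reported to bind POLRMT, differed by -0.21, the transfer RNA 3′ nuclease ELAC2 by -0.18, the elongation factor TEFM by -0.17 and the RNA-binding FASTKD2 by -0.17.

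Mitochondrial translation factors had 8 of 12 genes lower and a median of -0.05. The elongation factors GFM1 (-0.24), TUFM (-0.17) and TSFM (-0.17) and the COX1 activator TACO1 (-0.17) were furthest from 0. In mtDNA replication and maintenance 4 of 13 genes were lower and 9 higher, with a median of 0.06. ATAD3A, a membrane ATPase tied to nucleoids (-0.25), and the single-strand binding protein SSBP1 (-0.11) were lower, and the primase-polymerase PRIMPOL (0.24) and the ligase LIG3 (0.16) higher. Deoxynucleotide supply had 7 of 12 genes lower and a median of -0.03, with the ribonucleotide reductase subunit RRM2B at 0.25, the thymidylate kinase DTYMK at -0.21, the mitochondrial thymidine kinase TK2 at 0.21 and the pyrimidine carrier SLC25A33 at -0.16. In each of the lists of this paragraph, 0 genes reached 1.2-fold.

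Among coregulators and partner factors 17 of 26 genes past the floor were higher and 9 lower, with a median of 0.04. RXRA, a nuclear receptor partner, differed by -0.27 and was the one gene of its list past 1.2-fold. HCFC1, which binds PGC-1 coactivators, differed by -0.26, PERM1 by 0.25 and GABPB1 by 0.23. Genes known as outputs of NRF1 or GABPA split, with 7 of 12 lower and a median of -0.02, which was 0.01 after quantile normalization. HSPE1, the mitochondrial co-chaperonin, differed by -0.21, cytochrome c (CYCS) by -0.15, the cytochrome oxidase assembly gene SURF1 by 0.16 and ALAS1, the first enzyme of haem synthesis, by 0.13. Genes encoded by mtDNA itself are not analysed here, so no product of these regulators inside the organelle was read.

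**Figure D4:**
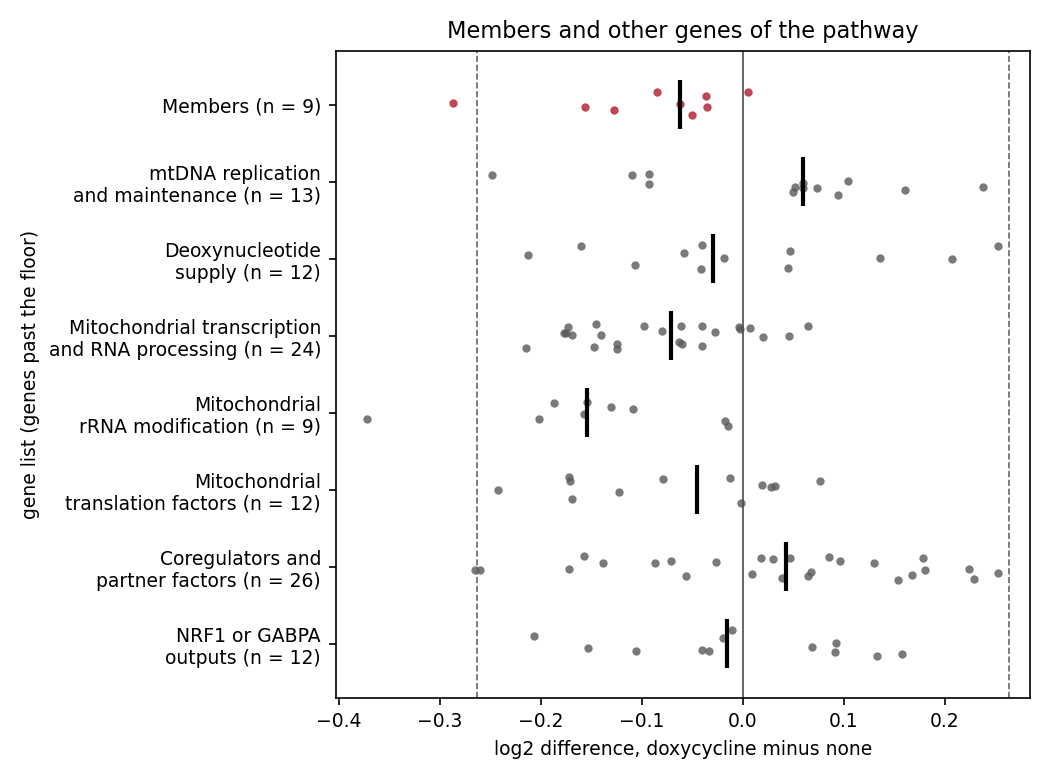
Log2 difference, doxycycline minus control, of each gene past the floor in the members and in 7 lists of the pathway; points are genes, thick bars are medians and dashed lines mark 1.2-fold. By the brightest probe set of each gene, the ribosomal RNA modification list lies wholly below 0. The replication list and the coregulators have medians above 0.

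Genes with the NRF1 core or ETS letters in a promoter stood close to all genes. Of 10603 genes past the floor with a promoter, 48.4% were lower, with a median difference of 0.0032. Of the 611 with the NRF1 core 49.3% were lower, with a median of 0.0013. Of the 2163 with the ETS letters 47.7% were lower, with a median of 0.0075. Of the 162 with both, 46.3% were lower, with a median of 0.01.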

How the data were processed

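RNA of 2 K562 cultures (0.3 µg each, integrity number 10) was hybridised to 1 Affymetrix array each, per the labels. Per the submitters' processing notes, the authors ran Affymetrix Expression Console 1.1.1 and the RMA method, which gives log2 values; no label states the base, and the deposited range of 1.61 to 14.6 fits it. RMA equalises the distributions of arrays and shrinks dim differences, so a shift shared by all genes would not be seen. The design text names another array type than the probe set numbers and annotation used here. Levels of different probe sets are not compared.

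Of 33297 probe sets, 19460 had 1 symbol, 1754 several and 12083 none here; 19429 of the 19460 were updated by Entrez ID to RefSeq (GRCh38.p14). A gene took its brightest single-symbol probe set. A floor of 6 on the higher of both values kept 13471 of 18417 genes. Each member's difference was placed among the 500 genes nearest in mean value, with a robust SD (1.4826 times the median absolute deviation), which is no replicate error. The number of arrays limits the precision. No p-value was computed.

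Besides the 10 members, the 4 genes of each of 7 lists with the largest absolute difference were named, plus those said to be picked later. Members and lists were chosen with earlier results of these data known. Alternatives were the mean, median or (added later) dimmest probe set, centring, quantile normalization, a loess trend (span 0.3) and floors of 5, 7, 8 or none. Counting steps were tested on simulated data with shifts larger than those of the members. That checks the counting and not the precision of small differences. Python 3.11.15, numpy 2.4.6, pandas 2.3.3, statsmodels 0.14.6 and matplotlib 3.10.9 were used.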

Additional observations from a re-analysis of the deposited data

How the results depend on the processing

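Of 59 member differences under other settings, 55 kept the sign reported. The exceptions were TFB1M after subtraction of the loess trend (-0.0018) and GABPA by the mean or median over its probe sets (0.04) and by its dimmest probe set (0.11), the last chosen after seeing the data. Only GABPA has 2 probe sets. For every other member the mean, median and dimmest probe set repeat the main value by construction, so these settings could not change its sign. Lower members numbered 7 to 9 across settings, and PPARGC1B was the 1 past 1.2-fold in each of them. The median of the NRF1 and GABPA outputs turned to 0.01 after quantile normalization. In ribosomal RNA modification 8 of 9 genes were lower by the mean, median or dimmest probe set, against 9 of 9 by the brightest. The counts over all genes followed the floor, because fewer or more dim genes were counted. With no floor, 1104 of 18417 genes were at least 1.2-fold lower and 1344 higher, and 66 at least 1.5-fold lower and 77 higher. A floor of 5 gave 32 of 15952 genes at least 1.5-fold lower. A floor of 7 kept 10365 genes, with 317 at least 1.2-fold lower, 9 at least 1.5-fold lower and 26 at least 1.5-fold higher. A floor of 8 kept 7172 genes, of which 3490 (48.7%) were lower. Of these 7172, 179 and 327 were at least 1.2-fold lower and higher, and 4 and 16 at least 1.5-fold lower and higher. No paired analysis was possible because each group held 1 sample, and no sample could be left out. Signal near the floor, as for PPARGC1A, limits what can be read.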

Other observations

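Within the RNA processing list, relatives differed in size and sign. These genes were picked after their values were seen. Of the FASTK family, which handles mitochondrial transcripts, FASTKD2 differed by -0.17, TBRG4 (FASTKD4) by -0.15, FASTKD1 by -0.12, FASTKD3 by -0.06 and FASTK itself by 0.0075. Of the MTERF family, which binds mtDNA or mitochondrial ribosomal RNA, MTERF1 differed by -0.15, MTERF3 by -0.14, MTERF2 by -0.12 and MTERF4 by 0.02. LRPPRC, which stabilises mitochondrial messenger RNAs, read 11.94 with doxycycline against 11.97 in the control, differing by -0.03.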
